A study of Mus musculus with 12 samples.

Results

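In newly developed thymic Treg, 116 TCRα clonotypes were public in Il2° mice and public in neither of the other genotypes. A clonotype is a combination of a V segment (TRAV), a CDR3 amino acid sequence and a J segment (TRAJ), and it is public in a genotype when at least 1 of its UMIs (unique molecular identifiers, which tag single mRNA molecules) was found in all 4 mice. The 116 members were found in all 4 Il2° libraries, were missing from at least 1 of 4 wt libraries and were missing from at least 1 of 4 Il15° libraries. They are 116 of the 441 public clonotypes of Il2° and 116 of the 22578 clonotypes found in any library. They were chosen by measured detection, so their detection and shares by genotype are described here without a test. The mice were Rag2-Gfp Foxp3-Thy1a animals on a B6 background that carried the Kaa Tcrb transgene and 1 functional Tcra allele (Tcra+/null), and they were wt, homozygous for an Il2 null mutation (Il2°) or homozygous for an Il15 null mutation (Il15°). From each mouse, aged 3 weeks, 100000 CD4+CD8-Thy1.1+GFP+ thymocytes were sorted, where Thy1.1 reports Foxp3 and GFP marks cells that recently rearranged their receptor genes. Each library came from 1 mouse. All cells carried the Kaa TCRβ chain, and both cytokine mutations are germline, so a cytokine was missing from every tissue of its mutant.

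The TCRα chain is assembled in the thymus by joining 1 of many V segments to 1 of many J segments. The ends are trimmed and bases without a template can be inserted between them, and the joint encodes the CDR3, the loop that lies over the peptide in the MHC groove. Chains that need little trimming and few inserted bases are made in many individuals, which is the usual background of public clonotypes. IL-2 and IL-15 are cytokines that signal through a shared receptor chain pair and support the development of Foxp3+ regulatory T cells.

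The members' joints are shown here for the 10 with the highest mean share in Il2°, for those found in Il2° only and for the one with the most nucleotide sequences. Each line gives the most abundant CDR3 nucleotide sequence of the clonotype in the Il2° libraries, 5′ to 3′, from the codon of the conserved cysteine to that of the last CDR3 residue, and the capitals mark bases that lie between the deposited end of the V segment and the start of the J segment.
TRAV10 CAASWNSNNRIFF TRAJ31: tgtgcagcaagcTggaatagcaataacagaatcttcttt
TRAV3D-3 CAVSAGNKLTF TRAJ17: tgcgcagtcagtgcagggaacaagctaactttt
TRAV16N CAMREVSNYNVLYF TRAJ21: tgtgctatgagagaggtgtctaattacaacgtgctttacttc
TRAV7-2 TRAJ27, 13 residues: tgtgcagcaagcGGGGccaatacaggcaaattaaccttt
TRAV4D-3 TRAJ17, 13 residues: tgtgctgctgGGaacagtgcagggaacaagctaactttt
TRAV4D-3 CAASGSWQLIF TRAJ22: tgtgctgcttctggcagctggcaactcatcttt
TRAV4D-3 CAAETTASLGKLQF TRAJ24: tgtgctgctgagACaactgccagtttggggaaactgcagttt
TRAV7-3 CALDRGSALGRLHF TRAJ18: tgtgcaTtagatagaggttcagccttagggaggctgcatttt
TRAV7N-5 CAVSMGY_QQQTYF TRAJ7: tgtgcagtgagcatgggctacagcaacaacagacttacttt
TRAV1 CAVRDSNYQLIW TRAJ33: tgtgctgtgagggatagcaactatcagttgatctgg
TRAV4-2 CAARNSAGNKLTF TRAJ17: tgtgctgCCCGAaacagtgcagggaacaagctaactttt
TRAV16N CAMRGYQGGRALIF TRAJ15: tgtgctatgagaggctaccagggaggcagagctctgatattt
TRAV6-2 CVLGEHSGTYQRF TRAJ13: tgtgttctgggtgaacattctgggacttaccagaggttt
TRAV4D-4 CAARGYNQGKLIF TRAJ23: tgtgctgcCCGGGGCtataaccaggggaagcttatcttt
These joints ran from no inserted base, as in TRAV1 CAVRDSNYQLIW, to 7 inserted bases in TRAV4D-4 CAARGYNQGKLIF. The sign _ in TRAV7N-5 CAVSMGY_QQQTYF is the mark that the deposited table uses for a joint out of frame. The mark was carried by 6 members, and these were all the members with TRAJ44 (3), TRAJ47 (1) and TRAJ7 (2). Read in codons from the conserved cysteine, the sequence printed for TRAV7N-5 CAVSMGY_QQQTYF held no stop codon. Whether these joints are out of frame in the cells was not tested.

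The libraries held 7625 to 25980 UMIs and 2105 to 5757 clonotypes. Il2° replicate 4 was the shallowest with 7625 UMIs, and 1 UMI was worth 0.00385% to 0.0131% of a library. A count of 0 allowed a share of up to 0.0115% to 0.0393%, taken as 3 UMIs of the library total, which covers counting error only. The wt libraries averaged 20801 UMIs, the Il2° libraries 13733 and the Il15° libraries 15279. Depth, the number of cells behind the UMIs and mRNA per cell cannot be told apart in these counts.

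Most members were present outside Il2° mice, in some of the libraries. At least 1 wt library held 112 of the 116 members, and at least 1 Il15° library held 89. Only 3 members were found in no wt and no Il15° library, while 23 were missing from a single wt and a single Il15° library. In total 51 members were found in 3 wt libraries, 46 in 2, 15 in 1 and 4 in none. For Il15° the numbers were 34 in 3 libraries, 33 in 2, 22 in 1 and 27 in none. The wt libraries held 76, 87, 39 and 58 members in replicates 1 to 4, and the Il15° libraries held 63, 28, 31 and 68. The 3 libraries with the fewest clonotypes outside Il2° (wt 3 with 2931, Il15° 2 with 2457 and Il15° 3 with 2105) also held the fewest members. Of the members, 23 were missing only from wt 3 among the wt libraries, 13 only from wt 1, 13 only from Il15° 2 and 14 only from Il15° 3. Without wt 3, the rule kept 93 members. Without Il2° replicate 1 or 4 it found 327 or 281 clonotypes, and at a presence of at least 2 UMIs it found 63. Thinned to an equal depth of 7625 UMIs per library, the expected number of clonotypes public only in Il2° was 105, of which 67.0 came from the 116 members, and the expected numbers public only in wt and only in Il15° were 138 and 81.5.

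**Figure D1:**
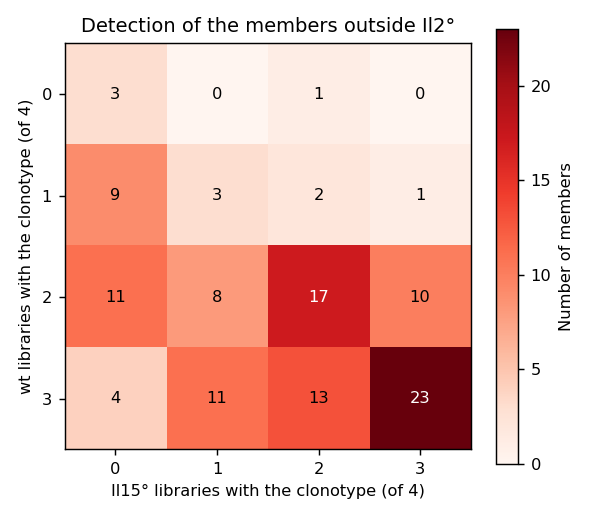
Number of members by the number of wt libraries (vertical axis, 0 to 3 of 4) and of Il15° libraries (horizontal axis, 0 to 3 of 4) in which they were found, with the colour scale giving the count of members. The fullest cell holds the 23 members found in 3 wt and 3 Il15° libraries, and 3 members lie in the cell of no detection.

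The members were sparse clonotypes. Their mean share over the 4 Il2° libraries ranged from 0.00813% to 0.134% of UMIs with a median of 0.0295%, against a median of 0.0574% for the other 325 public clonotypes of Il2°. Over the 4 Il2° libraries a member had between 4 and 77 UMIs, with a median of 15.5, and the median of the other public clonotypes was 31. In 71 members (61.2%) at least 1 Il2° library held a single UMI, against 103 (31.7%) of the other public clonotypes. A single UMI was found in 1 Il2° library for 37 members, in 2 for 23, in 3 for 9 and in all 4 for 2. Only 4 members had at least 5 UMIs in every Il2° library, against 112 of the others. This sparseness was not particular to the members. In their own libraries, the 289 clonotypes public only in wt and the 132 public only in Il15° had medians of 17 and 15.5 UMIs. A library with a single UMI was found for 50.9% and 77.3% of them, and 21 and 4 had at least 5 UMIs in every library. Between Il2° mice the share of a member varied with a median coefficient of variation of 61.8%. The coefficient was 51.2% for the other public clonotypes.

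As a set, the members made up 4.78%, 3.39%, 3.91% and 4.55% of the UMIs in Il2° replicates 1 to 4 (mean 4.16% ± 0.632, SD, n = 4). In wt the values were 2.29%, 2.38%, 1.48% and 2.11% (mean 2.07% ± 0.405, SD, n = 4). In Il15° they were 2.29%, 1.77%, 1.88% and 1.98% (mean 1.98% ± 0.224, SD, n = 4). All Il2° values lay above all others, a direction that the choice of members fixes. The mean share was higher in Il2° than in wt for 103 members and higher than in Il15° for 104, and it was lower in Il2° than in both for 3. No overlap between the 4 Il2° and the 4 wt libraries, with Il2° higher, was found for 23 members (19.8%), where 7.48% of all 441 public clonotypes of Il2° showed it. Against Il15° it was found for 34 members (29.3%), where 13.6% of all public clonotypes of Il2° showed it, and 12 members (10.3%) showed both, where 3.63% of all 441 did. The rule uses the same contrasts, so these counts are a description.

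**Figure D2:**
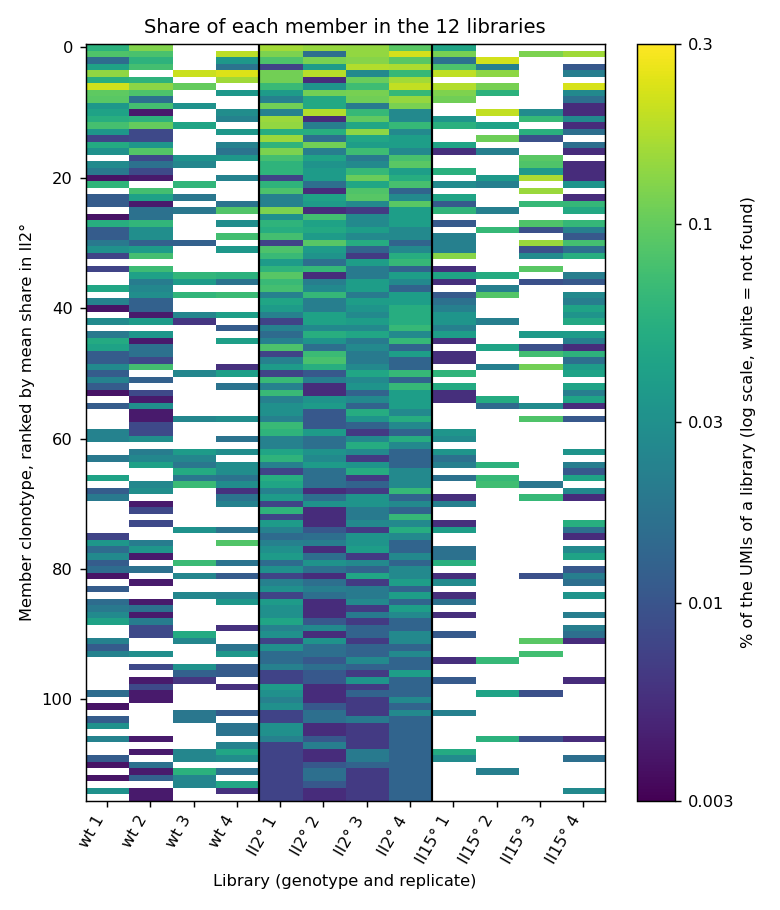
Share of each of the 116 members (rows, ranked by mean share in Il2°) in the 12 libraries (columns, genotype and replicate), as percent of the UMIs of a library on a log colour scale, with white for clonotypes that were not found. The Il2° columns are filled by the rule, and wt 3, Il15° 2 and Il15° 3 have the most white, with 39, 28 and 31 members found.

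The 10 most abundant members held 23.1% of the members' UMIs in Il2°. The first was TRAV10 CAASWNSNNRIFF TRAJ31, with 21, 27, 22 and 7 UMIs in Il2° replicates 1 to 4. It had 15, 30, 0 and 0 UMIs in wt and 8, 0, 0 and 0 in Il15°, giving mean shares of 0.134% ± 0.029 (SD, n = 4) in Il2°, 0.0458% in wt and 0.0111% in Il15°. Its lowest Il2° share, 0.0918%, lay above every Il15° share but below that of wt 2, 0.125%. Of its 77 UMIs in Il2°, 97.4% carried the nucleotide sequence shown for it.

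TRAV16N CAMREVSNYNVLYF TRAJ21 was the member of the top 10 whose Il2° libraries all lay above wt. It had 11, 22, 20 and 7 UMIs in Il2° and 4, 14, 0 and 6 in wt. In Il15° it had 3, 30, 0 and 0 UMIs, and replicate 2 there, at 0.218%, exceeded all Il2° libraries. TRAV4D-3 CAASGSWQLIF TRAJ22 had 15, 1, 16 and 12 UMIs in Il2°, 14, 14, 0 and 27 in wt and none in the 4 Il15° libraries. With near-identical V copies merged, this clonotype and TRAV16N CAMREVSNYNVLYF became public in wt or Il15°. TRAV1 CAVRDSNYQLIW TRAJ33 joins the V and J segments used by mucosal-associated invariant T (MAIT) cells, innate-like T cells that recognize MR1. It had 15, 9, 3 and 9 UMIs in Il2° and 9, 18, 5 and 0 in wt, and its only UMI in Il15° was in replicate 4. All clonotypes with TRAV1 and TRAJ33 together had 19, 10, 6 and 18 UMIs in Il2°, 16, 28, 5 and 12 in wt and 0, 0, 3 and 2 in Il15°. No member had the TRAV11 or TRAV11D and TRAJ18 pair of invariant natural killer T cells, and that pair had 1 to 17 UMIs in each library.

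For the remaining members of the top 10 the ranges of Il2° overlapped those of wt and Il15°. TRAV3D-3 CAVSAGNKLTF TRAJ17 had 16, 3, 22 and 17 UMIs in Il2°, 22, 19, 0 and 32 in wt and 21, 0, 13 and 29 in Il15°. The member with TRAV7-2 and TRAJ27 had 1, 7, 27 and 13 UMIs in Il2°, 11, 18, 0 and 3 in wt and 15, 3, 0 and 2 in Il15°. In both, 1 Il2° mouse had 3 UMIs or fewer while another had over 20. TRAV7-3 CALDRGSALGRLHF TRAJ18 had 5, 21, 18 and 5 UMIs in Il2°, 25, 20, 0 and 6 in wt and 22, 8, 0 and 5 in Il15°. TRAV7N-5 CAVSMGY_QQQTYF TRAJ7 had 3, 9, 17 and 11 UMIs in Il2°, 24, 4, 0 and 0 in wt and 20, 0, 0 and 3 in Il15°. Of the 10 most abundant members, 7 had no UMI in wt 3, the wt library with the fewest members as a whole.

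Just inside the rule stood the 23 members that were each missing from 1 wt and 1 Il15° library. The 2 described here had the highest mean shares in wt and Il15° among them, a choice that favours high wt shares. Both were in the top 10, as were others of the 23. The member with TRAV4D-3 and TRAJ17 had 36, 0, 33 and 41 UMIs in wt, 15, 34, 4 and 5 in Il2° and 35, 19, 0 and 4 in Il15°. Its mean share was 0.145% in wt and 0.0967% in Il2°. TRAV4D-3 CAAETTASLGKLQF TRAJ24 had 56, 32, 16 and 0 UMIs in wt, 9, 6, 11 and 15 in Il2° and 32, 16, 0 and 42 in Il15°. Both were thus higher on average in wt than in Il2° and met the rule through libraries without a UMI. Just outside the rule, TRAV3-1 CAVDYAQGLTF TRAJ26 had 1, 2, 1 and 1 UMIs in wt, 1, 2, 5 and 4 in Il2° and 6, 0, 0 and 0 in Il15°, and TRAV12N-3 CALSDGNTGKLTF TRAJ27 had mean shares of 0.0101% in wt and 0.013% in Il2°. On the side of Il15°, TRAV12D-2 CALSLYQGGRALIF TRAJ15 and TRAV12N-3 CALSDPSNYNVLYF TRAJ21 were found in all Il15° libraries at means of 0.0127% and 0.0129%.

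The 3 members found in Il2° mice only were rare. TRAV4-2 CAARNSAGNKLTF TRAJ17 had 5, 3, 6 and 5 UMIs in Il2° replicates 1 to 4 (mean 0.0396% ± 0.020, SD, n = 4). TRAV16N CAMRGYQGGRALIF TRAJ15 had 3, 3, 8 and 2 UMIs (mean 0.0292%). TRAV6-2 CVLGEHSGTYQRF TRAJ13 had 1, 1, 3 and 5 UMIs (mean 0.0245%). The 8 libraries without them allowed shares of up to 0.0115% to 0.0279%, so some of their Il2° shares lay below what an empty wt or Il15° library allows. TRAV16N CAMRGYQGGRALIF had 10 near neighbours, clonotypes of the same V, J and length that differ in 1 residue. Another member, with TRAV6D-6, TRAJ16 and 15 residues, was in no wt library but had 1 and 9 UMIs in Il15° replicates 1 and 2.

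Clonotype by clonotype, edgeR's quasi-likelihood test on UMI counts made no call among the members in its main setting, and alternatives called 2 members against Il15°. The test kept 464 clonotypes that reached 5 UMIs in 4 or more of 8 libraries, of which 0 (0.0%) differed between Il2° and wt at an adjusted p under 0.05 and 43 at an unadjusted p under 0.05. The 37 members among them had 0 calls and 2 at an unadjusted p under 0.05. Against wt, DESeq2 called 6 of 464 clonotypes, none a member, and left 297 of the 464 without an adjusted p. In the same comparison limma called 0 of 464. Against Il15°, 1 of 362 (0.276%) was called, TRAV16N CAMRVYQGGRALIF TRAJ15 (log2 fold 1.92, adjusted p = 0.0445 by edgeR with Benjamini-Hochberg adjustment), named because it was the only call and not itself a member. The 28 members tested had 0 calls and 1 at an unadjusted p under 0.05, where 34 of all 362 had one. DESeq2 called 5 of 362 clonotypes against Il15° and left 126 of the 362 without an adjusted p. Of the 28 members tested, 1 was called, TRAV10 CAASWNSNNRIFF (log2 fold 3.55, adjusted p = 0.0478 by DESeq2). With a filter of 1 UMI in 4 libraries edgeR called 3 of 1500, 1 of them the member TRAV4D-3 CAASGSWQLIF (log2 fold 6.79, adjusted p = 0.0116 by edgeR). All 116 members pass this filter through their Il2° libraries, which the rule fixed, and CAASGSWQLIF had no UMI in Il15°. The call of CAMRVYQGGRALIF was lost in limma, with a replicate block, and without Il2° replicate 2, 3 or 4 or any 1 Il15° replicate. Without Il15° replicate 1 the only call was the member TRAV10 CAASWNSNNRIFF (log2 fold 7.24, adjusted p = 0.0341 by edgeR). Without Il15° replicate 2 the only call was lower in Il2°. Most members were too sparse for the filter of 5 UMIs, and those tested were tested on the contrast that chose them. TRAV10 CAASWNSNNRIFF reaches the filter of 5 UMIs through its 4 Il2° libraries. The calls of these 2 members are thus a description and no support for a difference.

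The members had a median of 3 CDR3 nucleotide sequences in the Il2° libraries, and the other public clonotypes had 4. In 17 members (14.7%) a single nucleotide sequence encoded the CDR3, against 10 (3.08%) of the others. At the other end stood TRAV4D-4 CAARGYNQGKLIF TRAJ23, with 10 nucleotide sequences for 8, 21, 6 and 3 UMIs in Il2°. The member with TRAV4D-3 and TRAJ17 had 7 sequences and TRAV7-3 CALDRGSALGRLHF had 6. TRAV1 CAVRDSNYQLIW and TRAV7-2 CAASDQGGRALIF had 1 each. The same nucleotide sequence was found in all 4 Il2° mice for 47 members (40.5%) and for 197 (60.6%) of the others. The most abundant sequence of 34 members (29.3%) held no inserted base, against 126 (38.8%) of the others. These counts were not tested, and the others had more UMIs in which to find sequences.

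The members' CDR3 averaged shorter than that of the other public clonotypes of Il2° in all 4 mice. This difference did not pass the test in the main setting and was lost with V copies merged. The members' inserted bases were higher in all 4 mice, short of the threshold after adjustment. That difference was lost at a presence of at least 2 UMIs. Weighted by UMIs within each Il2° library, the CDR3 of a member averaged 12.8, 13.1, 12.9 and 12.9 residues in replicates 1 to 4 (mean 12.94 ± 0.123, SD, n = 4). The other public clonotypes averaged 13.08, 13.11, 13.04 and 13.08 residues (mean 13.08 ± 0.027, SD, n = 4), a difference of -0.14 residues (exact Mann-Whitney test, 2-sided, p = 0.2). Members were shorter in 4 of 4 mice, by little in replicate 2 (13.106 against 13.109). The difference was -0.13 with a presence threshold of at least 2 UMIs (exact p = 0.0286) and 0.00398 with V copies merged (exact p = 1). By clonotype, 36 members had 13 residues and 41 had 14, and the range was 10 to 17. Members held 1.53, 1.90, 1.78 and 1.71 inserted bases per UMI in replicates 1 to 4, and the others held 1.38, 1.47, 1.37 and 1.36. The members' mean of 1.73 ± 0.154 (SD, n = 4) lay 0.339 bases above the others' 1.39 ± 0.053 and was higher in 4 of 4 mice (exact Mann-Whitney test, 2-sided, p = 0.0286, the smallest that 4 against 4 can give, and 0.0571 adjusted over length and inserted bases). Counted once per clonotype the difference was 0.138 bases, and with a presence threshold of at least 2 UMIs, which leaves 63 members, it was -0.0257 (exact p = 0.886). The members were also the less abundant set, by the medians above, and the part of abundance in the difference was not tested. Both sets come from the same 4 mice, so the test covers the spread between mice and not that between clonotypes.

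In the middle of the CDR3, without 4 residues at each end, the members' residues were 26.0% hydrophobic, 22.7% glycine and 2.21% basic, with each clonotype counted once. For the other public clonotypes these values were 23.0%, 25.1% and 4.04%, and for all clonotypes of Il2° with a middle they were 24.8%, 23.5% and 4.05%. No member held a cysteine there. The share of basic residues corresponds to 12 of 543 residues, and these values were not tested.

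The members used 42 V segments and 36 J segments in 98 combinations. TRAV4D-3, a V segment at chr14:52899969-52900470 on the plus strand in GRCm38, led with 18 members. TRAV7-3 followed with 9, TRAV12N-3, TRAV3-3, TRAV4D-4, TRAV6D-6 and TRAV7-2 had 6 each, and TRAV12-3 and TRAV4N-3 had 5 each. By UMIs, TRAV4D-3 made up 19.8%, 12.8%, 15.6% and 17.3% of the members in Il2° replicates 1 to 4 and 13.02% ± 1.76 (SD, n = 4) of the other public clonotypes. TRAV4D-3 was higher in the members in 4 of 4 mice, but the ranges of the 2 sets overlapped (exact Mann-Whitney test, 2-sided and unpaired, p = 0.114). TRAV4D-4 stood at 4.59% ± 2.52 in members against 8.86% ± 0.947 (SD, n = 4) in the others, and TRAV4N-3 at 3.12% ± 1.17 against 5.98% ± 1.16. Each had an exact p of 0.0286, and after Benjamini-Hochberg adjustment over the 7 TRAV segments tested none passed (adjusted exact p = 0.1 for both). TRAV10, TRAV12N-3, TRAV7-2 and TRAV7-3 overlapped between the sets.

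Among the TRAJ segments, 6 of 11 did not overlap between the sets when weighted by UMIs, and none passed the adjustment. TRAJ12, at chr14:54206553-54206610 on the plus strand, made up 0.630%, 2.69%, 1.33% and 0.576% of the members' UMIs in the 4 Il2° mice and 11.2%, 14.7%, 11.2% and 10.6% of those of the other public clonotypes. Only 2 members used it, against 30 (9.23%) of the 325 others. TRAJ31 (chr14:54187895-54187951) stood at 8.61% ± 1.66 against 14.7% ± 3.08 (SD, n = 4). On the other side, TRAJ21 (chr14:54198790-54198846) stood at 8.65% ± 0.775 against 4.30% ± 0.782. The same direction held in 4 of 4 mice for TRAJ22 (7.56% ± 1.02 against 3.67% ± 0.968), TRAJ17 (8.30% ± 1.12 against 5.59% ± 0.704) and TRAJ26 (5.06% ± 0.763 against 2.85% ± 0.404). Each of the 6 had an exact p of 0.0286 and an adjusted p of 0.0524 over 11 TRAJ segments by exact Mann-Whitney tests. When near-identical V copies were merged, 8 of 13 TRAJ segments passed, with the same smallest unadjusted p. Counted by clonotype, TRAJ9 led with 10 members, TRAJ21 and TRAJ31 had 8 each, and TRAJ17, TRAJ22 and TRAJ26 had 7 each. With each clonotype counted once, TRAJ31 was used by 6.90% of members and 7.38% of the others and TRAJ22 by 6.03% and 6.15%, so these 2 did not keep the UMI-weighted gap. TRAJ12 (1.72% and 9.23%), TRAJ17 (6.03% and 2.46%), TRAJ21 (6.90% and 5.54%) and TRAJ26 (6.03% and 3.69%) kept its direction. Along the locus the median TRAJ number was 23.5 for members and 22 for the others.

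**Figure D3:**
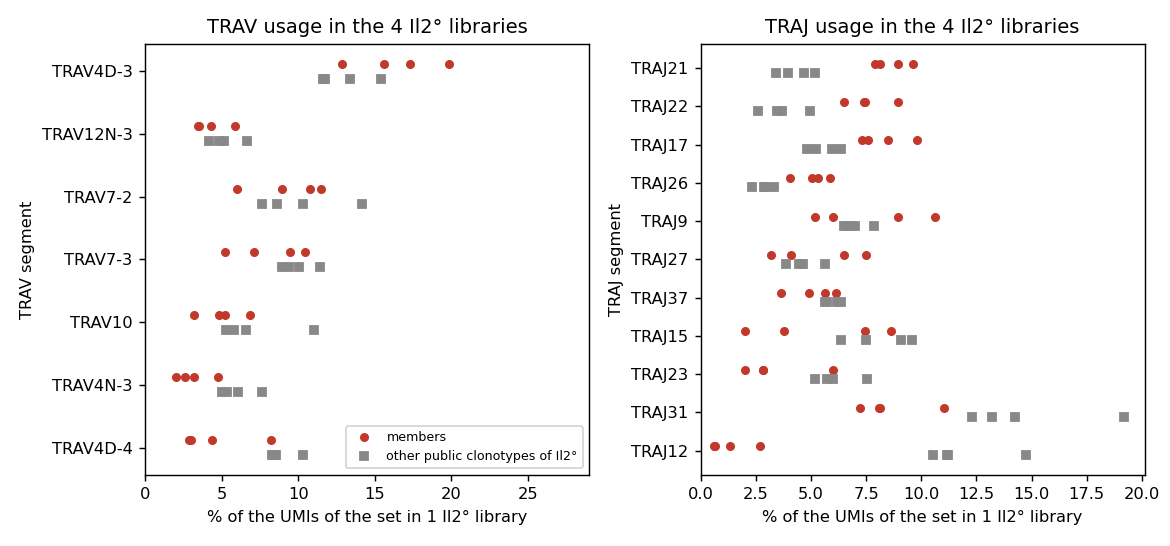
Percent of the UMIs of the members (red circles) and of the other public clonotypes of Il2° (grey squares) that used a TRAV segment (left) or a TRAJ segment (right), with 1 point per Il2° library and set. TRAJ12 lies below 2.7% in the members and above 10.5% in the others, and TRAJ21, TRAJ22, TRAJ17 and TRAJ26 lie higher in the members in all 4 libraries.

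Some members shared a V and J pair and differed in a few residues. The pair with the most members was TRAV7-3 with TRAJ26, with 4 clonotypes of 11 residues. This set and the next were chosen after their values were seen.
TRAV7-3 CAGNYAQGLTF TRAJ26: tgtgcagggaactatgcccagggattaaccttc
TRAV7-3 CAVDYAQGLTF TRAJ26: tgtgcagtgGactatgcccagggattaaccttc
TRAV7-3 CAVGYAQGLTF TRAJ26: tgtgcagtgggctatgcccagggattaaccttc
TRAV7-3 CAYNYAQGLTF TRAJ26: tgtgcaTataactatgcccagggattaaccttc
Their J-encoded end is the same, and their most abundant joints held 0 or 1 inserted base. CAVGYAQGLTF had 3, 8, 14 and 2 UMIs in Il2°, 3, 10, 3 and 0 in wt and 8, 0, 0 and 1 in Il15°. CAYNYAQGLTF had 7, 9, 6 and 2 UMIs in Il2°, 3, 7, 0 and 0 in wt and 0, 9, 1 and 4 in Il15°. The mean share of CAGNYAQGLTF was 0.0326% in Il2°, 0.027% in wt and 0.0428% in Il15°. That of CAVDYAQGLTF was 0.0254% in Il2°, 0.0196% in wt and 0.0313% in Il15°, so both were higher in Il15° than in Il2°.

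TRAV12N-3 with TRAJ22 and TRAV4D-3 with TRAJ31 had 3 members each, and those with TRAV12N-3 and TRAJ22 differed only at the fifth residue.
TRAV12N-3 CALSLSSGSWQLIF TRAJ22: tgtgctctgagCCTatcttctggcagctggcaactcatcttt
TRAV12N-3 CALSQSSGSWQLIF TRAJ22: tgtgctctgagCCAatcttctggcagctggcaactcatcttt
TRAV12N-3 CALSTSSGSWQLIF TRAJ22: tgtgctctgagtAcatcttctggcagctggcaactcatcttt
All 3 were absent from wt 3 and had mean shares of 0.0351%, 0.0421% and 0.03% in Il2° and 0.0132%, 0.0364% and 0.0102% in wt. In all, 11 members were 1 residue away from another member.

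Many V segments of this locus exist as near-identical copies, and a read can be assigned to any of them. Another copy with the same CDR3 and J was found for 47 members, and for 27 of them it was found in a wt library that lacked the member. When copies were merged, 98 members still met the rule, and 18 became public in wt (14) or Il15° (9). Of the 10 most abundant members, 5 were among these 18, namely TRAV3D-3 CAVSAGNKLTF, TRAV16N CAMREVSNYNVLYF and the TRAV4D-3 members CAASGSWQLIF, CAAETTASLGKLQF and the one with TRAJ17. Whether these 18 are public in Il2° mice alone thus depends on how copies are assigned. With copies merged, the rule found 118 clonotypes.

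Clonotypes close to the members took a higher share of UMIs in each Il2° library than in any wt or Il15° library, by a difference that did not pass adjustment over the comparisons made. Near neighbours, of the same V, J and length with 1 residue different and not members themselves, numbered 579, and 107 of the 116 members had at least 1. The rule did not use them. They made up 10.8%, 10.0%, 10.2% and 11.9% of the UMIs outside the members in Il2° replicates 1 to 4, against 8.94%, 9.59%, 9.01% and 8.52% in wt and 9.13%, 9.27%, 8.40% and 9.79% in Il15°. The Il2° mean of 10.7% ± 0.850 (SD, n = 4) lay 1.69 percentage points above wt (9.02% ± 0.443) and 1.56 above Il15° (9.15% ± 0.574). Every Il2° library lay above every other library (exact Mann-Whitney tests, 2-sided, p = 0.0286 for each, the smallest possible). The comparisons share the Il2° libraries, and wt and Il15° overlapped (exact p = 0.686).

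The neighbours of 3 other sets were counted in the same way. Neighbours of the 289 clonotypes public only in wt made up 18.8% ± 1.07 in wt and 16.5% ± 1.49 in Il2° (SD, n = 4, exact p = 0.2). Neighbours of the 132 public only in Il15° gave exact p of 0.2 or more in each of 3 comparisons, and those of the other 325 public clonotypes of Il2° made up 14.3% in wt and 13.99% in Il2° (exact p = 0.686). Over these 12 comparisons the adjusted exact p for the members' neighbours was 0.171 against wt and against Il15°. The difference against wt was 1.64 to 1.86 points, with an exact p of 0.0286 each, with V copies merged, at a presence of at least 2 UMIs or with in-frame clonotypes only. It was smaller and missed the threshold in 4 other counts of neighbours, at 1.09 points without the most abundant neighbour (exact p = 0.114), 0.560 with neighbours at least 2 bases away from every member sequence (exact p = 0.2), 0.501 when each clonotype counted the same (exact p = 0.114) and 0.364 without neighbours public in Il2° (exact p = 0.343). Against Il15° these differences were 1.498 (exact p = 0.114), 0.858 (exact p = 0.2), 0.356 (exact p = 0.343) and 0.454 (exact p = 0.343). The most abundant neighbour was TRAV10 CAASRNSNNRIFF TRAJ31, 1 residue from the leading member, with means of 1.80% ± 0.544 in wt, 2.40% ± 1.07 in Il2° and 2.34% ± 0.454 in Il15° (SD, n = 4). TRAV16N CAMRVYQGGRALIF TRAJ15, 1 residue from the Il2°-only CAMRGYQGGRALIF, averaged 0.286% in wt, 0.592% in Il2° and 0.167% in Il15°. By mean share, 293 neighbours were higher in Il2° than in wt and 225 were lower.

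For other clonotypes with the members' V and J pairs, no difference between Il2° and the other genotypes passed the test. The 4236 further clonotypes of these 98 pairs made up 30.7% ± 1.12 of the UMIs outside the members in Il2°, 32.3% ± 0.608 in wt and 31.6% ± 1.08 in Il15° (SD, n = 4). The difference was -1.60 points against wt (exact Mann-Whitney test, 2-sided, p = 0.0571) and -0.91 points against Il15° (exact p = 0.343). Both turned at a presence of at least 2 UMIs, to 0.403 (exact p = 0.486) and 1.07 (exact p = 0.114), and the difference from Il15° turned to 0.150 with V copies merged (exact p = 0.886).

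**Figure D4:**
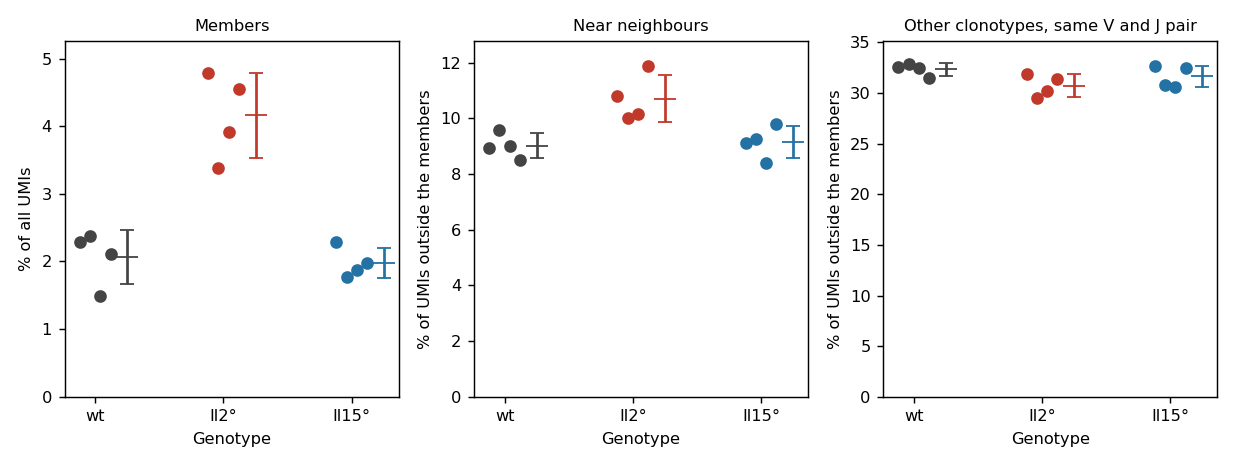
Percent of UMIs of the members (left, of all UMIs), of their near neighbours (middle, of UMIs outside the members) and of other clonotypes with the same V and J pairs (right, of UMIs outside the members) by genotype, with 1 point per library and bars for mean ± SD (n = 4). The members are higher in Il2° by the rule that chose them, the neighbours average 10.7% in Il2° against 9.02% in wt and 9.15% in Il15°, and the V and J pairs average 30.7%, 32.3% and 31.6%.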

How the data were processed

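TCRα libraries were made with UMIs from Treg of 12 individual mice (4 wt, 4 Il2°, 4 Il15°). Genotypes and replicate numbers are those of the labels. With pRESTO, the authors made 1 consensus for each UMI that had 2 or more reads, assembled clones with MiXCR and formatted them with VDJtools. Versions of these tools and of the V and J library are not given in the sources used here, and the labels name mm10 and GENCODE M21. The deposited counts are UMIs, not normalized, and the deposited fraction, not used here, is the count over the library total. The deposited positions of the V end and J start in the CDR3 gave the inserted bases, undefined in 282 of 57431 rows whose J start lies beyond the CDR3 and in 5 with a V end below 0. Error correction and clone assembly are already in the tables.

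Counts of the same V, CDR3 amino acid sequence and J were summed per library. The members, lists and segments were chosen with earlier results of these data known. Named clonotypes are the 10 members with the highest mean Il2° share, those in no wt or Il15° library, the 3 with the most nucleotide sequences, the 3 with the most near neighbours (TRAV7-2 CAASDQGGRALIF, TRAV12N-3 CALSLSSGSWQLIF and TRAV4D-3 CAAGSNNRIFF, with 15 each), and those just inside and outside the rule. A CDR3 of 15 or more residues is not spelled out. Segments were tested when their mean share over the 4 Il2° libraries was at least 5% of the UMIs of the members or of the other public clonotypes. TRAV3-3, TRAV6D-6 and TRAJ39, with 6 members each, fell below this and were not tested. Segment positions came from GENCODE M21 on GRCm38, in which 41 of 42 TRAV and 36 of 36 TRAJ names were found. The study used Mann-Whitney tests, and they were run here in exact 2-sided form (smallest p 0.0286 for 4 against 4), with Benjamini-Hochberg adjustment over segments.

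Clonotype counts reaching 5 UMIs in 4 or more of 8 libraries were compared with edgeR 4.0.16 (quasi-likelihood, TMM), with DESeq2 1.42.0 and limma 3.58.1 (on log2 of percent + 0.01) as alternatives, in R 4.3.3. Other values were computed with Python 3.11.15, pandas 2.3.3 and scipy 1.17.1, and the scripts were tested on simulated data. Alternatives were V copies merged, CDR3 nucleotides in place of residues, at least 2 UMIs, in-frame clonotypes, equal depth, each library left out and a replicate block. Totals of 7625 to 25980 UMIs set the precision, and intervals from counts cover counting error only. Replicate numbers belong to different mice and did not pair the libraries.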

Additional observations from a re-analysis of the deposited data

Results flagged for a closer look

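Of 83 groups of 4 libraries examined, over the named clonotypes, the summed measures, the CDR3 measures and segment usage, 7 held a library far from the other 3. The cutoff is set for about 1 in 20 by chance, a rate that does not allow for libraries at 0. All 7 were in Il15°. In replicate 1, TRAV10 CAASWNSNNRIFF was at 0.0444% of UMIs and TRAV4D-3 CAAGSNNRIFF at 0.0555%, with 0 in the other 3 libraries. TRAV7N-5 CAVSMGY_QQQTYF was at 0.111% in the same replicate, with 0 to 0.0161% in the others. In replicate 2, TRAV16N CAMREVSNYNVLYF was at 0.218% (0 to 0.0167% in the others) and TRAV7-2 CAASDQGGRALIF at 0.196% (0 to 0.0279% in the others). TRAV12N-3 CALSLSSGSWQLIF was at 0 in replicate 2 and at 0.0372% to 0.0389% in the others. TRAV1 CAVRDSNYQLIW had its only UMI in replicate 4, at 0.00538%. Absence from at least 1 Il15° library was part of the rule for members.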

How the results depend on the processing

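Of 54 alternatives that kept all libraries, 29 kept direction and side of the threshold (or, for counts, stayed within 1.5 times), 9 lost a call, 1 gained one, 10 moved and 5 reversed. Of 76 that left out 1 library, 49 kept them, 20 lost a call and 7 moved. The number of members was 63 at a presence of at least 2 UMIs, 3 if absence from all wt and Il15° libraries was required, and 93 to 327 with 1 library left out, where 327 and 281 came without Il2° replicates 1 and 4. CDR3 length differed from the other public clonotypes by 0.00398 residues with V copies merged (exact p = 1) and by -0.13 at 2 UMIs or more (exact p = 0.0286). Inserted bases differed by -0.0257 at 2 UMIs or more and by 0.138 with each clonotype counted once. With V copies merged, 8 TRAJ segments passed. For near neighbours, Il2° exceeded wt by 0.560 points (neighbours at least 2 bases away), 0.501 (share of clonotypes), 1.09 (without the most abundant neighbour) and 0.364 (without neighbours public in Il2°), and Il15° by 0.858, 0.356, 1.498 and 0.454, with exact p from 0.114 to 0.343. The settings without the most abundant neighbour and without neighbours public in Il2° were chosen after seeing the data. V and J pairs differed from wt by 0.403 at 2 UMIs or more, and from Il15° by 0.150 with V copies merged and 1.07 at 2 UMIs or more. By clonotype, DESeq2 gave 6 calls of 464 against wt and 5 of 362 against Il15°, with 297 and 126 left without an adjusted p. A filter of 1 UMI in edgeR gave 1 of 1928 and 3 of 1500, and limma gave 0 against Il15°. Among the calls against Il15°, 1 by DESeq2 and 1 at the filter of 1 UMI were members, which pass the filters through their Il2° libraries. Calls by edgeR against Il15° ran from 0 to 1 with 1 library left out, and were 0 without Il2° replicate 2, 3 or 4 or Il15° replicate 3 or 4. Without Il15° replicate 1 the call was a member, and without Il15° replicate 2 it was lower in Il2°. Replicate numbers did not pair the libraries (correlations of deviations -0.185 to 0.125), and the replicate block gave 0 calls in both comparisons. With 1 library left out, inserted bases differed by 0.308 to 0.400 and near neighbours by 1.30 to 1.92 points from wt and 1.17 to 1.79 from Il15°, and none passed the threshold. There 3 against 4 cannot go below an exact p of 0.0571 and 3 against 3 not below 0.1, nor can pairing within a mouse (0.339 bases) go below 0.125, so these losses say nothing about stability. At these depths, 71 members had 1 UMI in some Il2° library. The causes were not tested.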
